A study of Mus musculus with 8 samples.

Results

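The Zfp genes are mouse genes named for zinc finger proteins, and 278 of 335 such genes on the array were measured well enough to be described here. Members were chosen by name and by measured level. A gene was taken when its single annotated symbol began with Zfp and a number, with Zfp503 left out. Each gene was represented by its probe set with the highest mean log2(signal + 16) over 8 arrays, and it was kept when that mean lay above the median of all non-control probe sets, 5.87. The same level rule kept 10584 of the 18193 genes with a symbol of their own, and these served as the background for every count below. Just inside the limit were Zfp786, Zfp759 and Zfp385c, with mean levels of 5.91, 5.90 and 5.88 on that scale. Just outside were Zfp36, Zfp493 and Zfp595, at 5.85, 5.85 and 5.83.

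The study measured total RNA of the telencephalon on oligonucleotide arrays in mice with mutations of Dlx1 and Dlx2, a neighbouring pair of homeobox genes that act in the ventral telencephalon. Basal ganglia (BG) and cortex (Ctx) were each taken from animals of genotype +/- and of genotype -/-, with 2 arrays in each of 4 groups, numbered replicate 2 and replicate 3. The genotype labels are taken as those of the Dlx1/2 mutation. The sources used here do not give the exact allele, the strain, the age or any treatment, and no wild-type group was used, so every control carried the mutation on one chromosome. The labels do not state whether 2 arrays of a group stand for 2 animals, so the p-values reflect the scatter of these arrays alone, and that scatter may be technical.

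Most Zfp proteins carry tandem C2H2 zinc fingers, small folds held by a zinc ion that read DNA bases, and many also carry a KRAB domain. The KRAB domain binds the co-repressor TRIM28, which brings the histone methyltransferase SETDB1 and so places repressive chromatin, chiefly over retroelements. Genes of the KRAB type multiplied by local duplication, so they lie in dense clusters of similar copies, and a few members with the Zfp name are instead RNA-binding proteins or factors with quite different roles.

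The arrays were checked against their labels first. Dlx1 had signals of 1232 and 1237 in BG +/- against 3.67 and 15.5 in BG -/-, with 138 and 137 in Ctx +/- and 2.42 and 1.74 in Ctx -/-. Whether its probes fall within the deleted stretch was not examined. Of 14 basal ganglia markers 13 were higher in BG than in Ctx of the +/- animals, and of 12 cortex markers 11 were lower, whereas the source label names blood and adrenal medulla. Over all probe sets, correlations were 0.973 to 0.982 within a group and 0.930 to 0.977 between groups.

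Other measures moved with the groups as well. Xist, the RNA of the inactive X chromosome, was at 34.2 and 42.4 in BG +/- against 2340 and 2519 in BG -/-, with 62.6 and 67.5 in Ctx +/- and 2457 and 2363 in Ctx -/-. The Y-linked Eif2s3y showed the opposite, at 241, 261, 448 and 342 in the +/- arrays and at 6.46 or less in the -/- arrays. Sex and genotype therefore cannot be told apart in these arrays, in either region. Spiked dap control RNA averaged 1115 and 1233 in the BG +/- arrays, 671 and 766 in BG -/-, 364 and 620 in Ctx +/-, and 285 and 151 in Ctx -/-. The summed signal of the blood markers was 5966 to 6268 in BG +/-, 3142 to 3295 in BG -/-, 2036 to 2250 in Ctx +/- and 1447 to 1671 in Ctx -/-. Most of it in BG was 1 gene, Hbb-y, which averaged 5648 in BG +/- and 2851 in BG -/-. Of 5 blood markers tested, Hbb-y alone fell past the threshold in BG -/- and 0 rose. Markers of the tissue itself moved with genotype in BG too: 8 of 14 basal ganglia markers and 3 of 12 cortex markers fell in BG -/- and 0 rose. The basal ganglia markers summed to 7734 to 7951 in BG +/- and 4477 to 4570 in BG -/-, the cortex markers to 5404 to 5522 and 4487 to 4588. Within the cortex sum, Bcl11b averaged 2675 in BG +/- and 1656 in BG -/-. Bcl11b was itself higher in BG than in Ctx of +/- (0.53). Neurog2 and Fezf2, which also fell past the threshold, were lower in BG than in Ctx of +/- (-2.06 and -2.90). Neurog2 averaged 349 in BG +/- and 232 in BG -/- (-0.56), and Fezf2 149 and 87.1 (-0.68). Neurod6 went the other way, from 542 to 809, and did not pass. The part of these measures in the results below was not tested.

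Promoter stretches are shown for members that the results turn on: Zfp617 and Zfp959, whose genotype difference in BG differed from that in Ctx, and Zfp955a, a member of the chromosome 17 cluster in which 6 of 12 genes rose. They are the 250 bases upstream of the first listed start, 5′ to 3′ on the gene's own strand, from RefSeq on build GRCm38.p6. Capitals mark matches on either strand to CCAAT, the core of the NF-Y site, to CGGAAG, an ETS factor core, and to GGGCGG, an Sp1 core. Zfp37, whose difference in BG also differed from that in Ctx, is not shown. Its stretch held 0 matches to CCAAT, 0 to CGGAAG and 0 to GGGCGG, so the matches below are not a shared trait of such genes. Zfp617 lies on the plus strand at chr8:71922575-71922824, Zfp959 on the plus strand at chr17:55891843-55892092, and Zfp955a on the minus strand at chr17:33255146-33255395.
Zfp617: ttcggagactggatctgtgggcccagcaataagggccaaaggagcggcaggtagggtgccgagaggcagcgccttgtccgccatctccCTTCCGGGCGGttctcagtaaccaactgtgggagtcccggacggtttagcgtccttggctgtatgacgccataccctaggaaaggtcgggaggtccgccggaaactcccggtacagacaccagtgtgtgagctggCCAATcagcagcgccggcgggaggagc
Zfp959: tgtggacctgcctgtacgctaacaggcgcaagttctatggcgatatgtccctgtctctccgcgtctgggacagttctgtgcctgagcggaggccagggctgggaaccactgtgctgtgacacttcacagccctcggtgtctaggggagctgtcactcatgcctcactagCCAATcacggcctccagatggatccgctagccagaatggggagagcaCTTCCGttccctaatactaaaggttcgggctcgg
Zfp955a: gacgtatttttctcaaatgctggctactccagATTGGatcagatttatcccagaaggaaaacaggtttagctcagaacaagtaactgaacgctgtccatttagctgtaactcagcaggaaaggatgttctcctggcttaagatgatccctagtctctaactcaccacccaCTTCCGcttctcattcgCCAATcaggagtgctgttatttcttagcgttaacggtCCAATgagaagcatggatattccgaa
In the Zfp617 stretch the ETS core on the minus strand and the Sp1 core overlap. The promoter window of Zfp955b, on the plus strand at chr17:33289294-33289543 upstream of its start, held the same letters as that of Zfp955a in 300 of 300 positions. The probes of these near copies may not separate them, so their values are uncertain as values of one gene each.

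Between the genotypes, Zfp genes were called in the basal ganglia and not in the cortex, and most of those called were higher in BG -/-. In all, 42 members rose and 4 fell in BG -/- (limma, Benjamini-Hochberg adjusted p under 0.05 over all 31526 probe sets tested). The 46 members called are 16.55% of the 278, where 9.27% of all genes above the median level were called. Rises took in 15.11% of the members against 5.72% of those genes, and falls 1.44% against 3.55%. The median difference of the members was 0.11 on the log2 scale and that of all genes at such levels -0.09. With each array centred on its median these became 0.014 and -0.19, and 30 members were called in place of 46. The middle of the distribution moved less than its upper end: the 90th percentile was 0.81 in the members and 0.48 in the genes, the 10th -0.34 and -0.46. In bulk tissue, fewer cells of a type and less RNA per cell cannot be told apart.

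**Figure D1:**
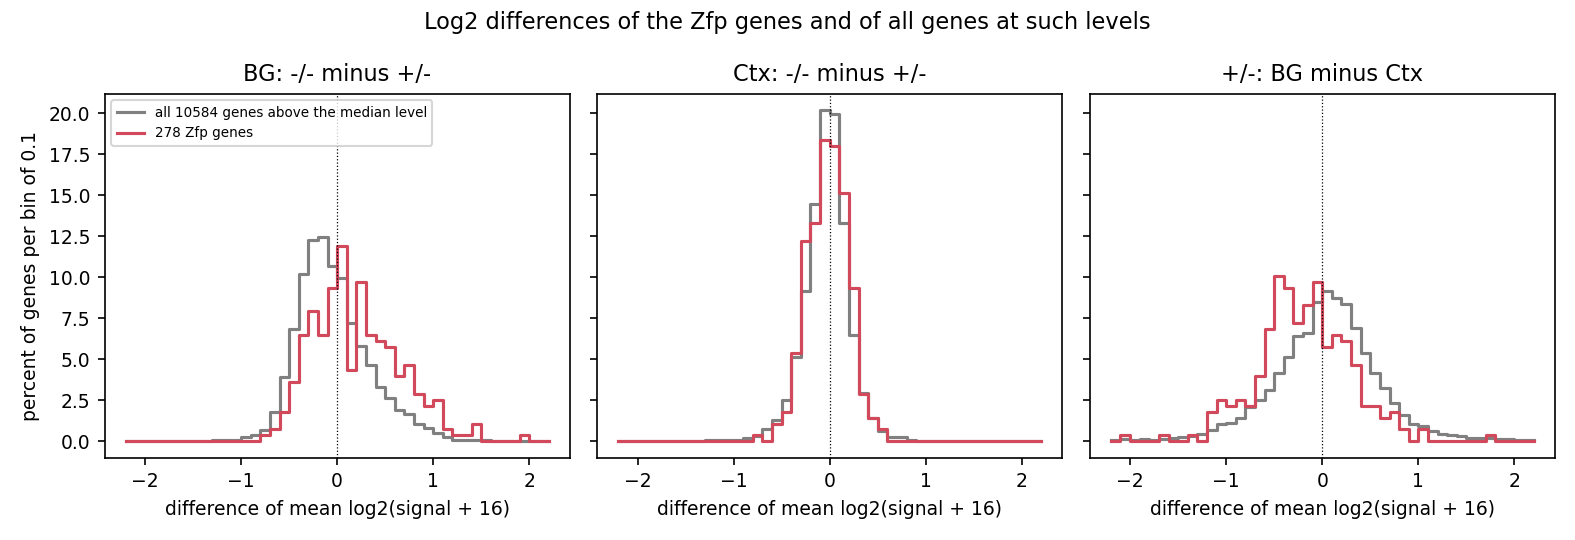
Percent of genes in each bin of 0.1 (vertical axis) by difference of mean log2(signal + 16) (horizontal axis), for the 278 Zfp genes and the 10584 genes above the median level, in BG between genotypes, in Ctx between genotypes and in +/- between regions. In BG the Zfp genes extend further to the right, with medians of 0.11 and -0.09, in Ctx both medians are -0.02, and in +/- the Zfp genes lie to the left, with medians of -0.20 and 0.06.

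Among the 12 largest rises, Zfp617 alone kept its call under every alternative run. It was at 192 and 177 in BG +/- against 531 and 518 in BG -/-, with 378 and 418 in Ctx +/- and 420 and 425 in Ctx -/-. Both BG +/- arrays were thus the lowest of the 8 and both BG -/- arrays the highest. The difference was 1.43 ± 0.12 (SE, log2 scale; limma adjusted p = 0.00355), its other probe set rose by 1.05, and the alternatives were 17 in number.

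The largest rise was that of Zfp950, at 49.8 and 33.8 in BG +/- against 226 and 187 in BG -/-, with 217 and 221 in Ctx +/- and 312 and 208 in Ctx -/-. Only the BG +/- arrays stood apart, while the BG -/- arrays lay at or near the level of cortex. The difference was 1.95 ± 0.22 (limma adjusted p = 0.00756), but its other 2 probe sets, at 0.38 and 0.42, did not pass. Zfp932, a KRAB protein that binds endogenous retroviruses in embryonic stem cells, was at 55.1 and 87.7 in BG +/- against 241 and 210 in BG -/-, with 256 and 250 in Ctx +/- and 246 and 229 in Ctx -/-. It rose by 1.49 ± 0.19 (limma adjusted p = 0.00965), and again the BG +/- arrays alone were low.

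Zfp37, a KRAB gene known from testis and brain, was at 198 and 159 in BG +/- against 519 and 520 in BG -/-, with 318 and 293 in Ctx +/- and 268 and 303 in Ctx -/-. In this gene the BG +/- arrays were below and the BG -/- arrays above every cortex array. It rose by 1.47 ± 0.14 (limma adjusted p = 0.00556), and its other probe set rose by 1.21.

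Zfp60 followed, at 105 and 128 in BG +/- against 315 and 337 in BG -/-, with 287 and 271 in Ctx +/- and 343 and 309 in Ctx -/-, a difference of 1.38 ± 0.14. Zfp141 was at 45.7 and 51.4 in BG +/- against 127 and 149 in BG -/-, with the cortex arrays between 86.6 and 120, and rose by 1.25 ± 0.14. The cortex arrays of Zfp60 overlapped with BG -/-, whereas those of Zfp141 lay between the genotypes of BG.

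Zfp266 was at 601 and 633 in BG +/- against 1356 and 1334 in BG -/-, with 1088 to 1447 in cortex, and rose by 1.11 ± 0.16. One more of its probe sets rose by 1.55, and the other two, at 0.08 and 0.27, did not pass. Zfp322a, which has been tied to the pluripotency network of embryonic stem cells, was at 214 and 307 in BG +/- against 546 and 558 in BG -/-, a rise of 1.06 ± 0.18. The X-linked Zfp449, which carries a SCAN dimerisation domain, was at 39.6 and 49.7 in BG +/- against 107 and 113 in BG -/-, also a rise of 1.06 (± 0.13). In all 3 genes the BG +/- arrays were the lowest of the 8.

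Of the other large rises, Zfp280d went from 209 and 213 to 463 and 447 (1.05 ± 0.12), while its other probe set, at 0.01 ± 0.16, did not pass. Zfp959 went from 32.9 and 39.0 to 84.7 and 98.4 (1.05 ± 0.14), and Zfp267 from 189 and 160 to 369 and 374 (1.03 ± 0.15). The limma adjusted p of the genes from Zfp60 to Zfp267 in this order lay between 0.00572 and 0.019. The 30 remaining rises ran from 0.53 for Zfp451 to 1.02 for Zfp729a.

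**Figure D2:**
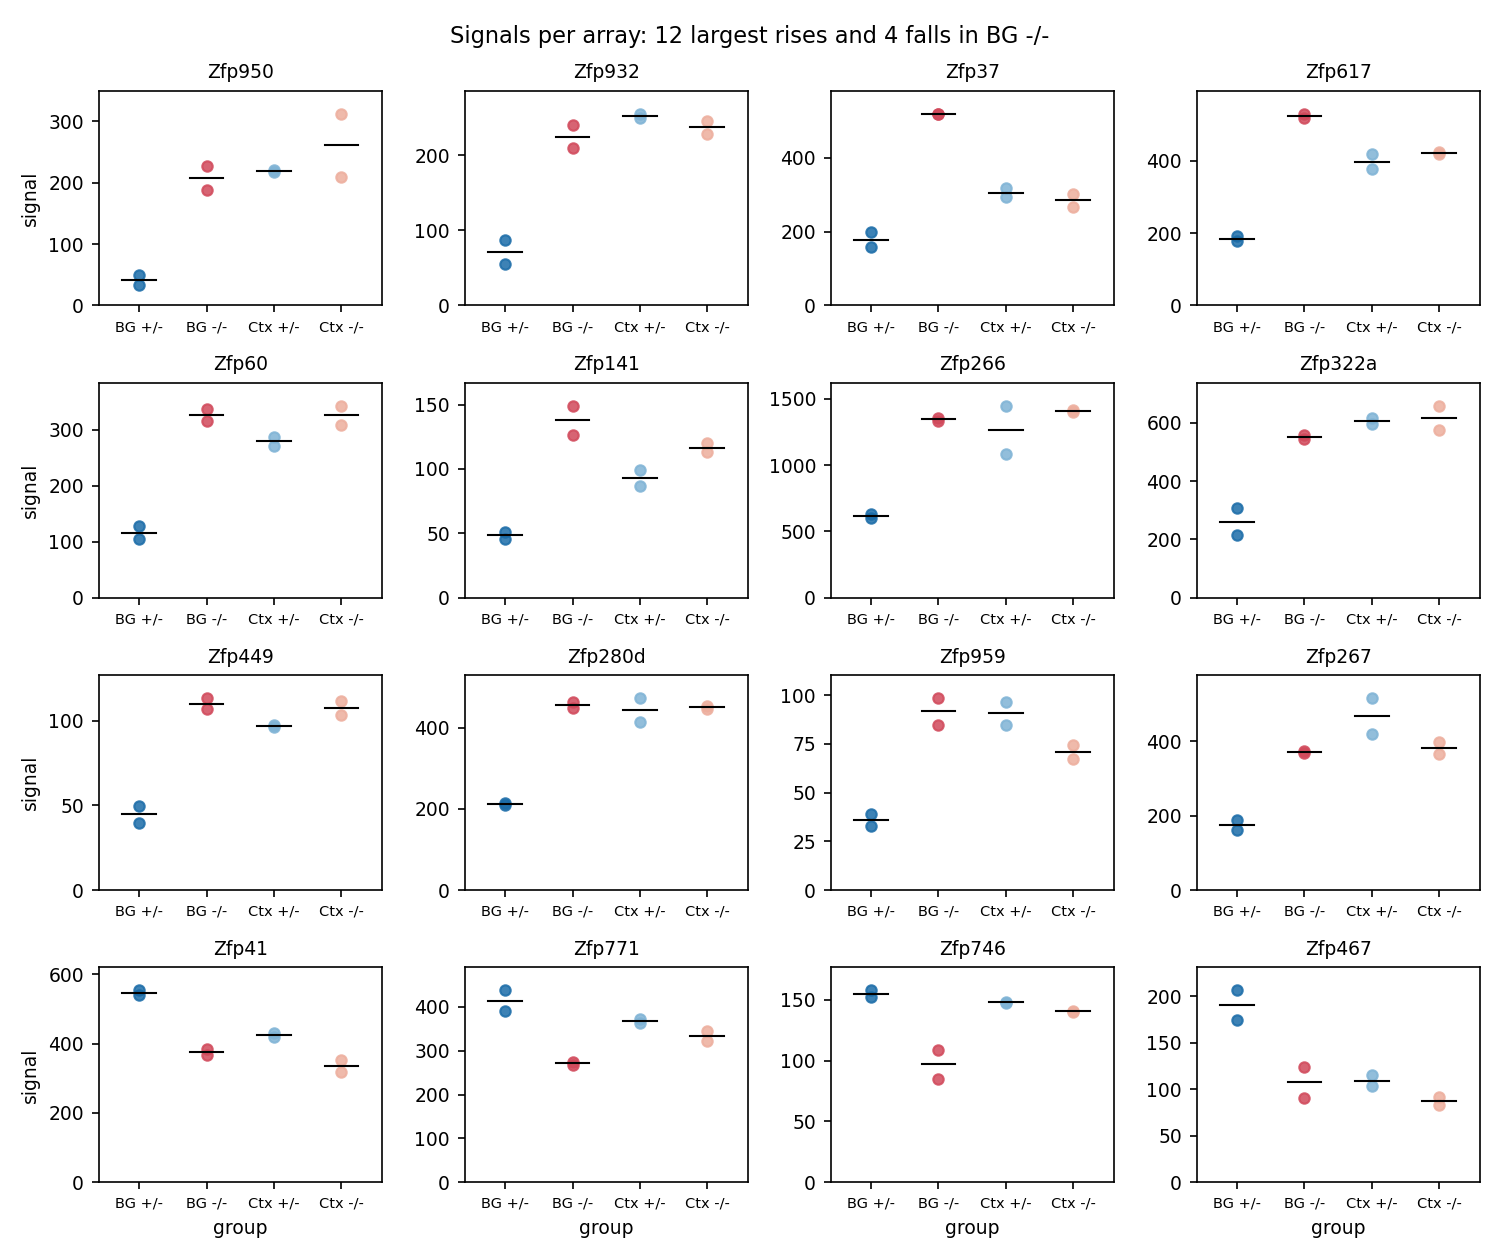
Signal (linear, deposited units, axis from 0) of each array by group for the 12 Zfp genes with the largest rise and the 4 that fell in BG -/-. Points are arrays and bars the mean of 2; in the 12 rises both BG +/- arrays are the lowest of the 8, as in Zfp617 with 192 and 177 against 531 and 518.

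The 4 falls were smaller and less steady than the 12 largest rises. Among rises closer to them in size, Zfp451, Zfp120 and Zfp280c kept their calls in 7 of 17 alternatives. Zfp638, Zfp207 and Zfp24 kept theirs in 9, 11 and 12. Zfp467, a factor known from the choice between fat and bone cells, was at 206 and 175 in BG +/- against 124 and 91.1 in BG -/-, with 104 and 115 in Ctx +/- and 83.3 and 91.7 in Ctx -/-. It fell by 0.75 ± 0.17 (limma adjusted p = 0.0407), and its other 2 probe sets, at -0.19 and -0.01, did not pass. The call held in 4 of 17 alternatives. Zfp746, the PARIS repressor that the ubiquitin ligase parkin acts on, was at 152 and 158 in BG +/- against 85.1 and 109 in BG -/-, with 140 to 148 in cortex. It fell by 0.60 ± 0.14 and kept its call in 5 of 17. Here the BG +/- arrays were above and the BG -/- arrays below every cortex array.

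Zfp771 went from 390 and 437 to 275 and 266, a fall of 0.58 ± 0.12, and Zfp41 from 553 and 541 to 367 and 384, a fall of 0.53 ± 0.12. Each kept its call in 7 of 17 alternatives. The other probe set of Zfp771 tested gave -0.30 ± 0.14 and did not pass.

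With 2 arrays per group, the counts depended on single arrays. Without BG -/- replicate 2 or without BG -/- replicate 3 only 1 member was called in BG, without BG +/- replicate 2 there were 8, without BG +/- replicate 3 there were 14, and without either Ctx -/- array 27. A group left with 1 array was assumed to vary like the others. Calls over all genes above the median level fell in these runs as well, so the loss is not particular to the Zfp genes. The members' median was 0.18 without BG +/- replicate 2 and 0.17 without BG -/- replicate 2.

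The arrays were also compared gene by gene without a test. In 90 members (32.4%) both BG +/- arrays were lower than all 6 other arrays, as in 15.0% of all genes above the median level. Both were higher in 27 members (9.71%), as in 22.0% of the genes. BG -/- stood apart upwards in 31 members (11.15%, background 8.79%) and downwards in 19 (6.83%, background 14.3%). For Ctx +/- the counts were 20 higher and 6 lower (7.19% and 2.16%, background 5.31% and 4.01%), and for Ctx -/- 24 and 21 (8.63% and 7.55%, background 8.56% and 10.9%).

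**Figure D3:**
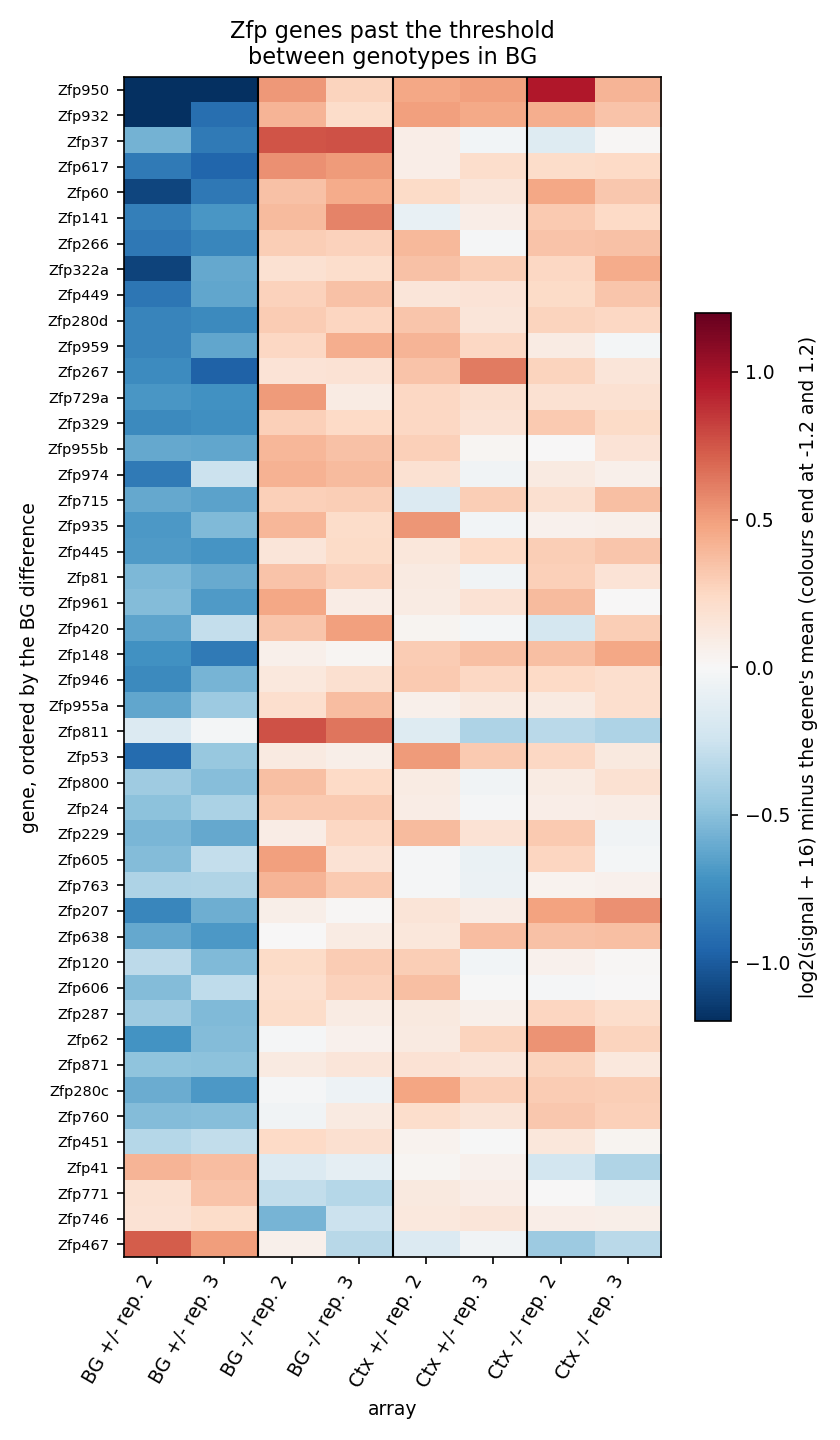
Log2(signal + 16) minus the gene's mean over 8 arrays (colour, ending at -1.2 and 1.2) for the 46 Zfp genes called between genotypes in BG, one row a gene in order of the BG difference and one column an array. The 2 BG +/- columns are the lowest in most of the 42 rises, and the 4 falls are the rows at the foot. The rows were chosen for the BG difference, so the contrast of the BG columns is a description.

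The rises were also counted by level of signal, which depends on the brightness of a probe set as well. Of the 93 members with the highest mean signal 26 rose (27.96%), against 7.15% of all genes at those levels. Of the 92 with a middling signal 6 rose (6.52% against 4.84%), and of the 93 with the lowest 10 rose (10.75% against 3.93%). The medians of the members were 0.05, 0.09 and 0.23 from the brightest to the dimmest of these 3 classes, and those of all genes had the same order, at -0.12, -0.10 and -0.02.

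Where a called gene had more than 1 probe set, the sets mostly pointed the same way. Of the called members 33 had 63 other probe sets tested, of which 61 had the same sign and 22, from 18 members, also passed the threshold. These members were called for a large difference, which favours a shared sign. For members not called the share with the same sign was not counted. Opposite signs occurred there, as in Zfp235 (0.91 and -0.29) and Zfp358 (-0.28 and 0.43). In 0 members did probe sets pass in opposite directions. Among the 232 members not called, 10 had another probe set that was higher past the threshold and 1, Zfp444, had one that was lower, at -0.67. The 10 include Zfp182 on X, whose brightest set was at 0.10 and another at 1.25. Probe sets with the suffix _x_at or _s_at, which can bind related transcripts, represented 24 members, and without them 39 members rose and 2 fell. The probe sequences were not used here, so signal shared between similar copies was not examined.

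**Figure D4:**
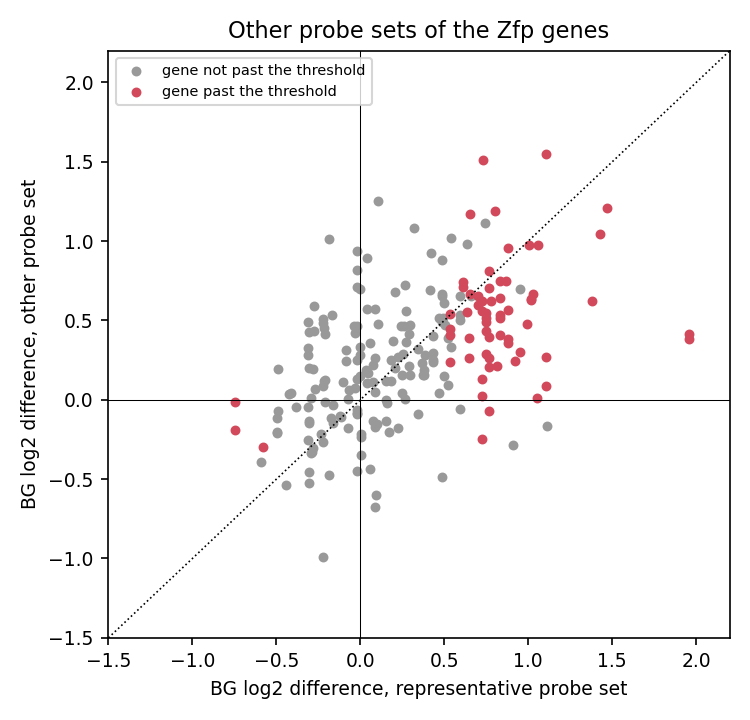
Log2 difference between genotypes in BG of the probe set that represents a gene (horizontal axis) and of each other tested probe set of the same gene (vertical axis), 220 points from 139 Zfp genes. Most points of called genes share a sign with the brightest set, and several lie near 0, such as Zfp280d at 1.05 and 0.01.

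By chromosome, chromosome 17 held the most rises, 11 of its 38 members (28.95%), with a median difference of 0.34. Of the 456 other genes on chromosome 17 at such levels, 2.19% rose and the median was -0.18. Chromosome 7, with 68 members, had 7 rises and 1 fall (10.29% rose, against 3.39% of its other genes). On chromosome 2, which carries Dlx1 and Dlx2 themselves, 1 of 13 members rose (7.69%, against 5.98% of its other genes), Zfp120, by 0.69 ± 0.15. On X, 2 of 5 rose, Zfp449 and Zfp280c (0.60 ± 0.12), where 15.06% of the other X-linked genes rose, and Xist and the Y-linked gene differed between the genotypes as given above.

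The other 12 members on chromosome 2 did not pass. Their values in BG were 0.33 for Zfp661, 0.30 for Zfp937, 0.22 for Zfp804a, 0.08 for Zfp335 and Zfp408, 0.06 for Zfp106, 0.04 for Zfp770 and 0.01 for Zfp512b. Below 0 were Zfp334 at -0.06, Zfp931 at -0.15, Zfp217 at -0.28 and Zfp64 at -0.59. The other X-linked members were Zfp711 at 0.49, Zfp182 at 0.10 and Zfp275 at -0.08. Zfp711, a gene of X-linked intellectual disability in people, had a limma adjusted p of 0.0651.

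Members were then ordered along the chromosomes, with a cluster taken as at least 3 members with at most 5 other protein-coding genes between neighbours. There were 20 clusters with 120 members, of which 20 rose (16.67%, median 0.27), and 22 of the 158 members outside rose (13.92%, median 0.05). Both shares lay above the 5.72% of all genes above the median level. Counts of differences above 0 in the clusters below stand beside 63.31% of all members and 40.12% of those genes. The genes of the clusters named here were taken after their values were seen.

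The chromosome 17 cluster from Zfp871 to Zfp414 had 6 rises among 12 members and 10 differences above 0. Zfp955b went from 190 and 189 in BG +/- to 401 and 387 in BG -/-, a rise of 0.99 ± 0.14. Its near copy Zfp955a went from 320 and 367 to 578 and 654 (0.82 ± 0.13), the gene whose promoter is printed above. The second probe sets of this pair, at 0.48 and 0.21, did not pass.

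Zfp81 rose by 0.88 ± 0.12 and Zfp811 by 0.80 ± 0.13, the latter from 299 and 332 to 586 and 536 with cortex at 258 to 302. Zfp811 thus differed from most rises: its BG +/- arrays lay within or above the range of cortex and its BG -/- arrays were above all 6 others. Zfp763 rose by 0.73 ± 0.11, with its second probe set at 1.51, and Zfp871 by 0.61 ± 0.11. In Ctx these 6 genes lay between -0.09 and 0.19, with 0 called.

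The larger chromosome 17 cluster, from Zfp160 to Zfp13, had 4 rises among 19 members, Zfp946 at 0.82, Zfp53 at 0.78, Zfp229 at 0.75 and Zfp760 at 0.55. Differences above 0 were found in 18 of the 19, with a median of 0.29 and a range from -0.07 for Zfp995 to 0.82. Not every cluster looked like this. The chromosome 6 cluster from Zfp786 to Zfp467 had 0 rises, 2 falls (Zfp467 and Zfp746) and 1 of 8 differences above 0, with a median of -0.18, and the chromosome 7 cluster from Zfp553 to Zfp689 had 1 fall (Zfp771) and 1 of 6 above 0. Neighbours share a local copy history and some share probe sequence, so they are not independent points.

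**Figure D5:**
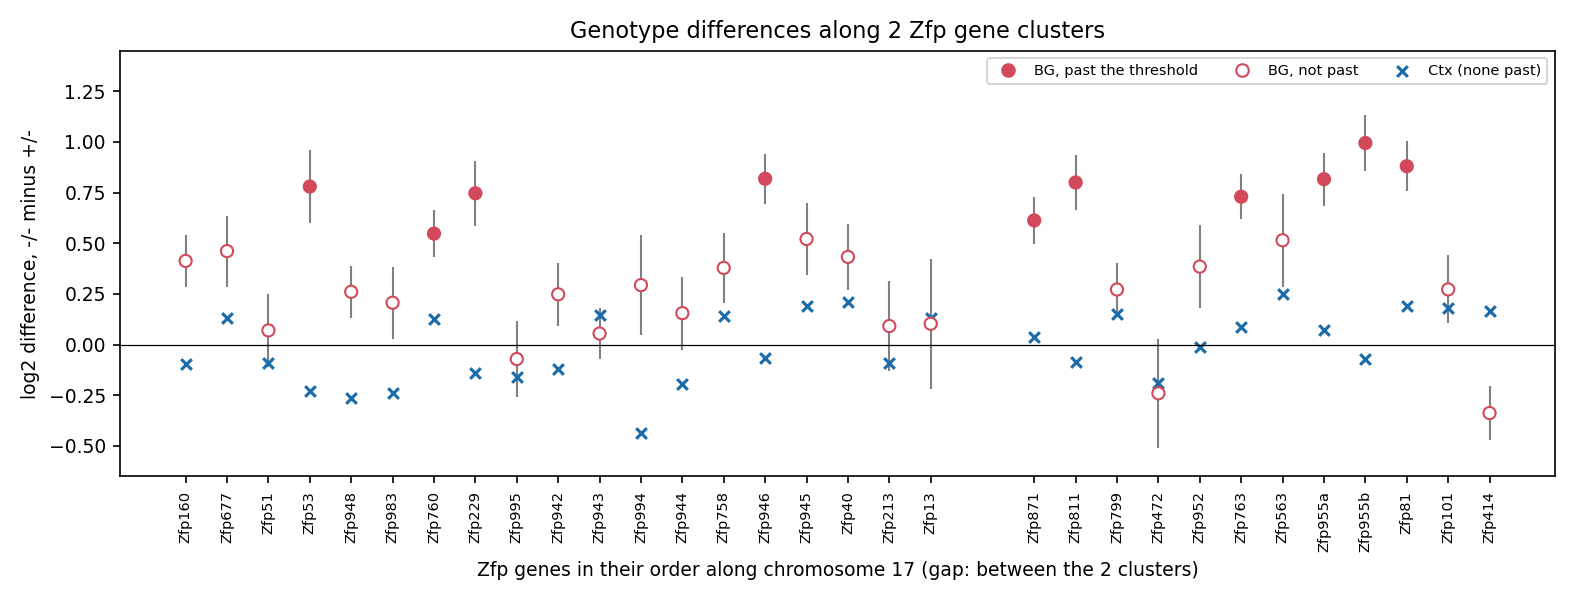
Log2 difference between genotypes, -/- minus +/- (vertical axis), of the 31 Zfp genes of the 2 chromosome 17 clusters in their order along the chromosome (horizontal axis, not to scale). Circles give BG with the standard error of the fit, filled where past the threshold, and crosses give Ctx; 10 circles are filled, up to 0.99 for Zfp955b, and 0 crosses passed.

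The promoters of the members were compared as letters only. A 300-base window around the first listed start, with 250 bases before it and 50 after, was found for 230 of the 278 members and for 40 of the 42 rises. CCAAT, on either strand, was in 62.5% of the windows of the rises, 43.7% of those of the other members, 39.3% of those of all genes above the median level and 37.9% of all windows in the table. GCCATNTT, the core bound by YY1, was in 27.5%, 12.6%, 9.53% and 6.23% in the same order. These shares are a description without a test, and a match is not a binding site.

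CGGAAG was in 40.0% of the windows of the rises, 37.4% of the other members, 33.4% of the genes above the median level and 17.2% of all. GGGCGG was in 52.5%, 47.9%, 67.4% and 35.9%. TAATTA, a core read by many homeodomain factors, was in 7.5%, 4.21%, 2.10% and 5.31%, which is 3 of the 40 windows of the rises. The median number of CG dinucleotides per window was 12 in the rises, 16 in the other members, 22 in the genes above the median level and 7 in all windows. CCAAT and GCCATNTT share letters, so 1 stretch can hold parts of both.

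The members with a described function were grouped in 4 lists, whose counts of rises stand beside 15.11% of all members and 5.72% of all genes above the median level. At these list sizes 1 gene more or less moves a share far, so nothing is read from the counts about the lists. In the list of pluripotency, imprinting and retroelement control 2 of 8 rose and 0 fell, with a list median of 0.50. Zfp445, which with Zfp57 protects imprinted marks in the early embryo, was at 864 and 847 in BG +/- against 1547 and 1636 in BG -/-, with 1536 and 1649 in Ctx +/- and 1713 and 1758 in Ctx -/-. Both BG +/- arrays were below the other 6, and the rise was 0.88 ± 0.11 (limma adjusted p = 0.00965).

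Zfp932, given above, was the other rise of that list. Zfp809, which silences murine leukaemia virus DNA at its primer binding site, had a difference of 0.73 ± 0.19 with an adjusted p of 0.0569 by limma. Zfp568, a repressor of a placental Igf2 transcript, was at 0.66 ± 0.28 and did not pass. Zfp57 was at -0.02 ± 0.20, with 96.5 and 126 in BG +/- and 94.0 and 124 in BG -/-.

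Of 11 widely expressed factors of transcription, chromatin and cell division, 3 rose and 0 fell, and the list median was 0.03. Zfp148, which binds GC-rich promoters, went from 666 and 610 to 1159 and 1133, with cortex at 1380 to 1536, a rise of 0.83 ± 0.12. Zfp207, or BuGZ, a partner of the spindle checkpoint protein BUB3, went from 1361 and 1560 to 2469 and 2372 (0.73 ± 0.12), but its 5 other probe sets ran from -0.24 to 0.62. Zfp451, a SUMO ligase, rose by 0.53 ± 0.11. Zfp516 was at -0.41 ± 0.15 and did not pass.

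Among 13 members with roles in neural development 1 rose and 0 fell, with a list median of 0.22. Zfp24, a SCAN domain factor needed for myelination, went from 488 and 527 in BG +/- to 864 and 861 in BG -/-, with cortex at 685 to 738, and rose by 0.75 ± 0.12. Zfp292 was at 0.49 ± 0.12, with an adjusted p of 0.0554 by limma, while of its 5 other probe sets 1 passed, at 0.88, and another ran the other way, at -0.49. Zfp423, a regulator of cerebellar and olfactory development, was at 0.45 ± 0.18 and did not pass.

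Of 10 members that bind RNA or act in translation 1 rose and 0 fell, with a list median of 0.00. Zfp638, a nucleic acid binding protein that works with the HUSH complex against retroviral DNA, went from 374 and 354 to 584 and 623 and rose by 0.70 ± 0.13. Zfp326, of the DBIRD complex that couples transcription and splicing, was at 0.46 ± 0.13, Zfp598, the ubiquitin ligase of collided ribosomes, at -0.43 ± 0.15, and Zfp622, a factor of ribosome maturation, at -0.31 ± 0.12. These 3 did not pass.

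The proteins that KRAB domains recruit, and the silencing machinery around them, formed a list of their own. Of 27 of its genes tested in BG, 2 rose and 0 fell, with a list median of -0.11, where 5.72% of all genes above the median level rose and their median was -0.09, so the list lay near the background. Tasor, a HUSH subunit, was at 114 and 185 in BG +/-, 310 and 346 in BG -/-, and 132 to 169 in cortex. It rose by 1.09 ± 0.21 (limma adjusted p = 0.0274) and kept its call in 11 of 17 alternatives. Smarcad1, a chromatin remodeller, went from 395 and 459 to 732 and 639. Its rise of 0.66 ± 0.14 (limma adjusted p = 0.0313) was less steady, with the call kept in 6 of 17. Trim28 itself was at 2381 and 2261 in BG +/- against 1585 and 1640 in BG -/-, with 2172 and 2587 in Ctx +/- and 1996 and 2048 in Ctx -/-. Its difference of -0.52 had an adjusted p of 0.0535 by limma, and Chd3, of the NuRD complex, was at -0.65 with 0.0508. Whether the list differs from the Zfp genes was not tested.

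In the cortex 0 of 278 members were called between genotypes by limma, where 0.189% of all genes above the median level were called (0.0283% higher and 0.161% lower), and 22 members had an unadjusted p under 0.05, of which 7 were higher and 15 lower (2.52% and 5.40%, against 2.56% and 5.22% of those genes). The median difference was -0.02 in the members and -0.02 in the genes. The smallest p-values belonged to Zfp773, at -0.46 ± 0.13, Zfp513, at -0.47 ± 0.13, and Zfp326, at 0.45 ± 0.13, with adjusted p of 0.314, 0.314 and 0.339 by limma. Zfp773 was at 68.0 and 57.8 in Ctx +/- and at 43.6 and 38.7 in Ctx -/-, so its arrays did not overlap, and Zfp326 at 489 and 566 against 718 and 733. Ctx +/- arrays had choroid plexus markers at a summed 12060 to 13954 and Ctx -/- arrays at 31.2 to 87.3, whose part in the cortex values was not tested.

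The difference between the effect in BG and the effect in Ctx was tested directly. It passed for 3 members, all with the larger rise in BG (1.08%, where 0.331% of all genes above the median level were called, 0.265% higher and 0.0661% lower). Zfp37 had a difference of effects of 1.56 ± 0.20 (limma adjusted p = 0.0422), from 1.47 in BG and -0.10 in Ctx. Zfp617 had 1.35 ± 0.17 (adjusted p = 0.0376, from 1.43 and 0.08), and Zfp959 1.35 ± 0.20 (adjusted p = 0.0499, from 1.05 and -0.30).

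Zfp959 was at 96.7 and 84.7 in Ctx +/- and at 74.5 and 67.2 in Ctx -/-, so its BG -/- arrays, at 84.7 and 98.4, lay within the range of Ctx +/- or just above it. None of the 3 calls was kept when any 1 array was left out, and over 16 alternatives Zfp617 and Zfp37 kept theirs in 4 and Zfp959 in 3. Without adjustment 70 members had p under 0.05, 59 higher and 11 lower (21.2% and 3.96%, against 8.76% and 7.55% of all genes above the median level). The median of the members was 0.18 and of the genes -0.05. For the other 39 rises in BG, a difference between the regions did not pass the threshold, which does not show that their effects were alike.

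Between the regions, the Zfp genes were mostly lower in BG than in Ctx of +/- animals. In all, 59 were lower and 11 higher, 25.18% of the members where 26.8% of all genes above the median level were called. By direction, 21.22% of the members were lower against 13.1% of the genes, and 3.96% higher against 13.8%. The median was -0.20 in the members and 0.06 in the genes. This comparison uses the same BG +/- arrays as the genotype comparison in BG, so low values there enter both. Without BG +/- replicate 3 the count called was 34 and without BG +/- replicate 2 it was 36.

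The largest shortfalls in BG +/- against Ctx +/- were those of Zfp950 (-2.04) and Zfp932 (-1.65), which had risen by 1.95 and 1.49 between the genotypes, then Zfp267 (-1.34), Zfp322a (-1.19) and Zfp60 (-1.17). Zfp148, at -1.12, belonged here too. Zfp235 was at 20.7 and 15.4 in BG +/-, 56.5 and 40.0 in BG -/-, and 42.9 to 91.1 in cortex, a difference of -1.13 between the regions in +/-, and its genotype difference of 0.91 in BG had an adjusted p of 0.0694 by limma. Its other probe set had the opposite sign in both, at 0.27 between the regions and -0.29 in BG, and did not pass.

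Zfp462, a chromatin protein whose human counterpart is a gene of developmental delay, differed between the regions in both genotypes. It was at 870 and 939 in BG +/- against 1123 and 1108 in BG -/-, with 1815 and 2185 in Ctx +/- and 2347 and 2306 in Ctx -/-. Every BG array was below every Ctx array. The difference was -1.13 in +/- and -1.05 in -/- (limma adjusted p = 0.00252 and 0.00394), and its 2 other probe sets were also lower in both genotypes, while in BG its genotype difference of 0.30 did not pass.

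Higher in BG was above all Zfp941, at 125 and 105 in BG +/-, 171 and 168 in BG -/-, and 12.4 to 34.6 in cortex. The BG and Ctx arrays did not overlap, and the difference was 1.79 in +/- and 2.58 in -/-. Zfp324 (1.04 and 0.96 in +/- and -/-), Zfp618 (0.84 and 1.06) and Zfp697 (0.73 and 0.65) were likewise higher in BG in both genotypes. Zfp36l2, a CCCH-type protein that speeds the decay of AU-rich messenger RNAs, was at 173 and 168 in BG +/- against 71.2 and 81.7 in Ctx +/- (1.01), and in -/- its 0.41 did not pass. Zfp710, Zfp764 and Zfp938 were at 0.80, 0.73 and 0.72 in +/-, and none of them passed in -/-.

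In -/- animals members were called on both sides. Of the 278, 13 were higher and 11 lower in BG than in Ctx, 8.63% where 18.9% of all genes above the median level were called (10.1% higher and 8.83% lower). The median was 0.02 in the members and -0.01 in the genes. With each array centred on its median the split became 4 higher and 44 lower, and the median of all probe sets itself moved from 0.08 to -0.21. The side to which the members lean in -/- thus depended on the scaling, with medians of -0.26 in the members and -0.29 in the genes after centring. Leaving out one array left 5, 7, 5 and 6 calls without Ctx -/- replicate 2, without Ctx -/- replicate 3, without BG -/- replicate 3 and without BG -/- replicate 2, and 16 without either BG +/- array.

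Beside the genes already given, Zfp811 (1.05), Zfp804a (0.92), Zfp607b (0.89) and Zfp37 (0.83) were higher in BG -/-. For Zfp811 and Zfp37 these values share the BG -/- arrays with their rises. Zfp536, which restrains neuronal differentiation, was higher by 0.56 in -/-, at 158 and 168 in BG against 107 and 104 in Ctx.

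Lower in BG -/- were Zfp692 (-1.25), Zfp664 (-0.83), Zfp637 (-0.72), Zfp217 (-0.66), Zfp612 (-0.63), Zfp398 (-0.59) and Zfp532 (-0.57), the last a partner of Zfp592 and Zfp687 in a chromatin complex. Zfp692 was at 113 and 66.9 in BG -/- against 263 and 201 in Ctx -/-, without overlap. Zfp398 is uncertain, since the mean over its probe sets gave 0.03, and so is Zfp612, whose other probe set was at 0.51.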

How the data were processed

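The values are intensity values as deposited by the authors, 1 linear signal per probe set and array for 45101 probe sets, of which 64 are controls. The trimmed mean of each array (2% of values trimmed at each end) was 150.0, so a common scale had been set beforehand. Which program made the signals is not stated in the labels or the file. Gene symbols came from the platform annotation (34945 probe sets with 1 symbol, 932 with several and 9160 with none), and chromosomes and gene order from RefSeq on GRCm38.p6, in which all 278 members were found by symbol.

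Signals were analysed as log2(signal + 16), which understates differences of low genes. Probe sets differ in brightness per molecule, so the level limit and the level classes are of signal and not of transcript amount. Apart from these, levels of different genes are not compared. The lowest 30% of probe sets by mean were left out. The remaining 31526 probe sets entered limma 3.58.1 (R 4.3.3, lmFit and eBayes) with a mean for each of 4 groups, and two-sided p-values were adjusted across all of them by Benjamini-Hochberg, with a threshold of 0.05. The fit was tested on simulated data for the size of its estimates, with no set share of changes required to be called. All values printed as differences are -/- minus +/- or BG minus Ctx, with the standard error of the fit. The number of arrays limits the precision.

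The members and the gene lists were chosen with earlier results of these data known. Named are up to 12 rises and falls in BG with the largest difference, up to 6 in Ctx and in the difference of effects (or the 3 smallest p), up to 8 for each region comparison, up to 4 per role list by smallest p, members on chromosomes 2 and X, and those next to the level limit; others were named after their values were seen. Alternatives were offsets of 1 and 64, centring, quantile normalization, no filter, eBayes with trend and robust, only the arrays compared, a replicate block, the mean of a gene's probe sets, a level limit at the 75th percentile, each array left out in turn, and, added later, members without _s_at and _x_at probe sets.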

Additional observations from a re-analysis of the deposited data

Results flagged for a closer look

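For 3 members the genotype effect differed between the regions by a test of that difference (limma, adjusted p under 0.05). The effect in BG minus the effect in Ctx was 1.56 ± 0.20 (SE, log2 scale) for Zfp37, 1.35 ± 0.17 for Zfp617 and 1.35 ± 0.20 for Zfp959. Over 16 alternatives the difference ran from 1.35 to 1.70 for Zfp37, from 1.14 to 1.42 for Zfp617 and from 0.84 to 1.68 for Zfp959, always above 0, with adjusted p from 0.00048 to 0.181, 0.000416 to 0.181 and 0.0139 to 0.192.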

How the results depend on the processing

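The BG count of 46 became 30 with arrays centred, 28 without the filter, 82 with trend and robust, 16 with only the arrays compared and 29 above the 75th percentile (122 members), and 1 to 49 with 1 array left out. The BG median was 0.15 and 0.082 at offsets of 1 and 64, 0.014 centred, 0.077 by quantile, 0.16 as mean of probe sets, 0.063 above the 75th percentile and 0.11 to 0.18 with 1 array left out. For the genes above the median level it was -0.19 centred and -0.12 by quantile. The share of these genes that rose in BG was 2.89% centred and 3.32% without the filter. That share was 10.7% with trend and robust and 1.83% with only the arrays compared. For the difference of effects, 0.265% of these genes were called higher in the main run. That share was 1.97% at offset 64 and 4.08% with trend and robust, so calls grew over all genes as well. The Ctx median was 0.044 centred and -0.054 to 0.018 with 1 array left out, with 0 calls each time. The 3 calls for the difference of effects became 0 at offset 1, centred, without the filter, with the replicate block and with any array left out (0 to 0), 19 at offset 64 and 34 with trend and robust; the median became 0.23, 0.14, 0.019, 0.11 and 0.14 (offsets 1 and 64, centred, quantile, 75th percentile), and 0.14 to 0.26 with 1 array left out. The region count in +/- was 28 with only the arrays compared, 41 above the 75th percentile and 34 to 60 with 1 array left out; its median was -0.23, -0.15, -0.32, -0.16 and -0.31 in the same 5 settings, and -0.22 to -0.16. By quantile 17 of the 65 called there were higher (26.15%, against 15.71%). The region count in -/- was 37 at offset 64, 48 centred, 14 without the filter, 46 with trend and robust, 12 above the 75th percentile and 5 to 30 with 1 array left out; its median was -0.26 centred, -0.010 by quantile, 0.059 as mean of probe sets and -0.067 above the 75th percentile. Centring moved the median of all probe sets from 0.01 to -0.09 in BG, from 0.05 to -0.11 for the difference of effects and from 0.06 to -0.06 for region in +/-. Same-numbered arrays did not deviate together over the tested probe sets (correlations -0.0262 to 0.0218). Scatter of single probe sets can hide a shared deviation, so whether the numbers pair animals or batches is not settled by this. With the replicate block 33 members rose and 0 fell in BG, where 3.67% of the genes above the median level rose. Between regions 60 were called in +/- and 16 in -/-.

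Of 160 named values 12 changed sign in some alternative, 11 of them not past the threshold. In BG these were Zfp106 (-0.041 centred, -0.057 as mean of probe sets), Zfp335 (-0.021 centred, -0.017 by quantile), Zfp408 (-0.021 and -0.028), Zfp512b (-0.092 and -0.039), Zfp770 (-0.055 centred) and Zfp182 (-0.0055 by quantile). With 1 array left out the values ran from -0.069 to 0.18 for Zfp106, -0.15 to 0.024 for Zfp334, -0.010 to 0.17 for Zfp335, -0.061 to 0.22 for Zfp408, -0.026 to 0.041 for Zfp512b, -0.24 to 0.90 for Zfp661, -0.10 to 0.19 for Zfp770 and -0.24 to 0.084 for Zfp275. In Ctx Cbx1 gave -0.072 as mean of probe sets, and in -/- between regions Zfp398 gave 0.033 as mean of probe sets and Zfp281 -0.053 centred. The cause was not tested.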
